A study of Rattus norvegicus with 38 samples.

Results

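The club cell is the domed secretory cell of the small airways. It coats the bronchiole with secretoglobins, which are small secreted proteins, and it carries much of the lung's cytochrome P450, the haem enzymes that add oxygen to foreign chemicals. Several of these enzymes turn an inhaled or blood-borne chemical into a reactive product inside the cell that makes them, which is why the club cell is a known target of airway toxicants. Flavin-containing mono-oxygenases are a second family of oxidases, which work without haem on nitrogen and sulphur atoms.

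The 7 genes followed here are the secretoglobins Scgb1a1 and Scgb3a1, the P450s Cyp2f4, Cyp2a3, Cyp4b1 and Cyp2e1, and the flavin mono-oxygenase Fmo2. They were chosen by name, as the probe sets annotated with exactly 1 of these symbols, and are 7 of the 14217 genes measured. Of the 7 genes, 6 had 1 probe set and Fmo2 had 3, of which the one with the highest mean over all arrays was taken as the gene.

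Lung RNA was measured in 38 female N:NIH rats, all 34 weeks old, of 2 lines bred for low (LCR) or high (HCR) intrinsic exercise capacity, with 1 Affymetrix array per rat. The groups were 12 LCR rats exposed to cigarette smoke, 7 LCR rats exposed to room air (sham), 12 HCR smoke rats and 7 HCR sham rats. Smoke or room air was given on 5 days of each week, and the lungs were collected at 12 weeks. Each array held RNA from about 25 mg of lung, so airway, alveoli and vessels were read together, and fewer cells of a type cannot be told apart from less RNA per cell.

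Levels are linear intensities as deposited. A change is smoke minus sham, or LCR minus HCR, of the group means of log2(intensity + 16), given ± its standard error. Every adjusted p of a change is from limma with Benjamini-Hochberg adjustment over all 14217 genes, and a gene was called at or under 0.05. The scale understates the change of dim genes, and the number of arrays limits the precision.

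Arrays differed in ways the groups do not name. The median log2 value of an array averaged 5.98 on LCR smoke, 6.03 on LCR sham, 5.97 on HCR smoke and 6.01 on HCR sham arrays. The 3' minus 5' log2 difference of Actb, a sign of RNA degradation, averaged 0.65 on LCR smoke, 0.84 on LCR sham, 0.67 on HCR smoke and 0.92 on HCR sham arrays, and was highest on HCR sham 0432, at 2.06, as was that of Gapdh, at 1.20. On 6 arrays heart muscle, skeletal muscle or fat genes stood high: LCR sham 0442, HCR smoke 0410, 0414, 0415 and 0417, and HCR sham 0433. The summed intensity of 10 heart muscle genes reached 18843 on LCR sham 0442 and 13038 on HCR smoke 0415, against group medians of 168 and 206. Their mean log2 level, with each gene's mean removed, was also raised on arrays outside the 6. It was 1.10 on HCR sham 0432 and 0.86 on LCR sham 0440, against group medians of -0.68 and -0.72. On LCR smoke 0420 and HCR smoke 0419 it was 0.68 and 0.66, against -0.79 and -0.56. Leaving out the 6 arrays thus did not remove all of this signal. Array numbers ran in blocks by group, so their order and the group cannot be told apart.

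Smoke lowered 4 of the 7 genes in LCR rats, namely Scgb1a1, Cyp2f4, Cyp2a3 and Cyp4b1. In HCR rats it lowered Cyp4b1 and Fmo2 and raised Scgb3a1. In LCR, 50.6% of all genes were called, 27.9% lower and 22.7% higher. In HCR, 48% of all genes were called, 30.4% lower and 17.7% higher, so the share of the 7 genes called in either direction lay near the share of all genes in both lines. Genes with a rise made up 44.8% of the calls in LCR and 36.8% in HCR, against 64.8% and 53.1% when arrays were centred on their medians. The median change of the 7 genes was -0.81 in LCR, against -0.0046 for all genes, and 0.02 in HCR, against -0.03 for all genes.

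None of the 7 genes was called between LCR and HCR, under smoke (6.32% of all genes), under sham (3.73%) or in the interaction (1.87%), the LCR smoke change less the HCR smoke change. In these limma fits, 3 genes had an unadjusted p under 0.05 under smoke, 2 under sham and 4 in the interaction.

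**Figure D1:**
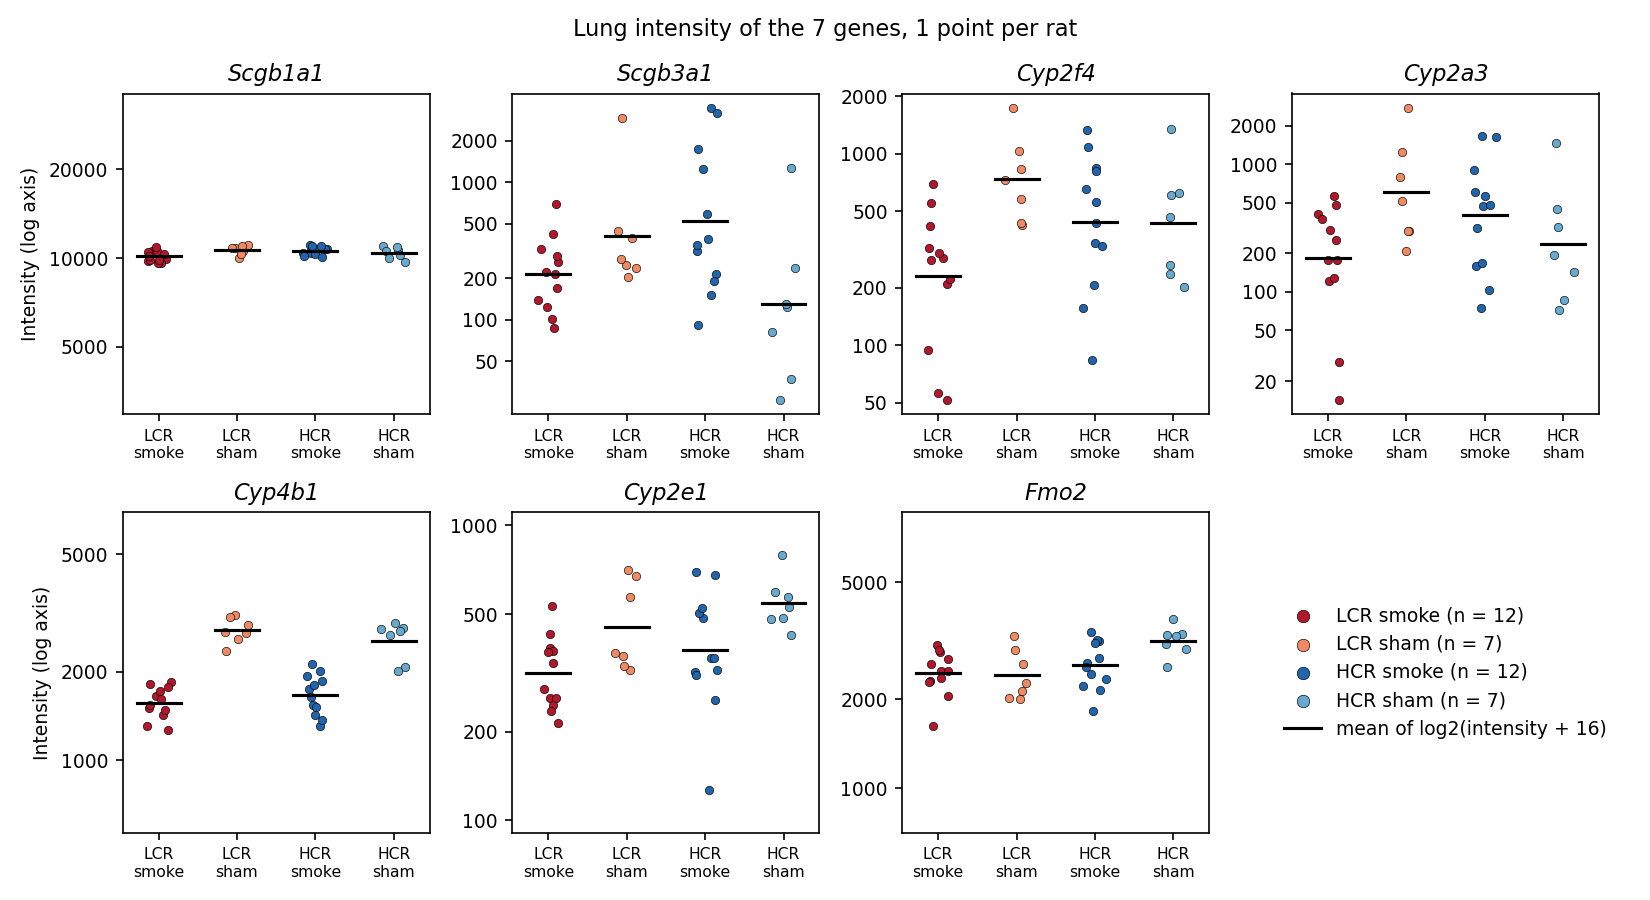
Intensity on a log axis of each of the 7 genes in every rat, with LCR smoke (n = 12), LCR sham (n = 7), HCR smoke (n = 12) and HCR sham (n = 7) from left to right, and a line at the mean of log2(intensity + 16) of the group. Cyp4b1 forms tight groups that are lower with smoke in both lines, while Scgb3a1, Cyp2f4 and Cyp2a3 spread widely within every group and Scgb1a1 stays within 9614 to 11118.

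Scgb1a1, the club cell secretory protein that dampens airway inflammation, had intensities of 9614 (lowest), 10056 (median) and 10925 (highest) in LCR smoke rats, against 10034, 10855 and 11096 in LCR sham rats. The HCR smoke rats had 10124, 10638 and 11118, against 9670, 10571 and 10958 in HCR sham rats. All 4 groups overlapped. The values lay close to the highest in the whole table, 11558, so the range left for a rise was small.

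Scgb1a1 fell in LCR by 0.07 ± 0.03 (adjusted p = 0.0288), with 11 of 12 smoke rats below the mean of the sham rats. Its change in HCR was 0.02 ± 0.03 (adjusted p = 0.518), and the interaction was -0.10 ± 0.04 (adjusted p = 0.175). The LCR call was lost when arrays were centred on their medians (-0.01, adjusted p = 0.691), and when LCR sham 0442, 0443, 0444 or 0445 was left out (adjusted p of 0.0549 to 0.0724). The Actb 3' minus 5' difference as a covariate also ended it (-0.06, adjusted p = 0.0776). So did leaving out the 6 arrays (-0.06, adjusted p = 0.0701). The lines differed by -0.06 ± 0.02 under smoke (adjusted p = 0.0935) and by 0.03 ± 0.03 under sham (adjusted p = 0.665).

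Scgb3a1, a second secretoglobin of airway secretory cells, varied most within groups. In LCR smoke rats its intensity was 87.6, 219 and 691 (lowest, median and highest), against 206, 278 and 2925 in LCR sham rats. Without LCR sham 0442, which gave the 2925, the highest LCR sham value was 440.03. Its values were 91.8, 367 and 3454 in HCR smoke rats, against 26.3, 124 and 1258 in HCR sham rats. The HCR smoke rats 0417 and 0415 stood at 3454 and 3161, and HCR sham 0432, at 1258, stood far above the next HCR sham rat at 236. That array also had the highest 3' minus 5' differences of the study, 2.06 for Actb and 1.20 for Gapdh, against at most 1.08 and 0.39 on the other arrays. Its mean heart muscle level was 1.10, against a median of -0.68 on HCR sham arrays.

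Scgb3a1 rose 3.69-fold in HCR (1.88 ± 0.63, adjusted p = 0.014), with 11 of 12 smoke rats above the sham mean and 3 above the sham range. In LCR its change was -0.87 ± 0.63 (adjusted p = 0.255). It was -0.40 without LCR sham 0442 (adjusted p = 0.617) and 0.39 with the ciliated marker level as a covariate (adjusted p = 0.516). The interaction of -2.75 ± 0.90 did not pass (adjusted p = 0.089), but passed when HCR sham 0432 was left out (-3.27, adjusted p = 0.0204). The HCR rise was then 2.41 (adjusted p = 0.0018). The interaction also passed with the Actb 3' minus 5' difference as a covariate (-2.91, adjusted p = 0.0414). It was -1.60 without the 6 arrays named above (adjusted p = 0.299), -1.81 with the heart list as a covariate (adjusted p = 0.138) and -1.55 with the ciliated level (adjusted p = 0.199). Between the lines, Scgb3a1 differed by -1.22 ± 0.54 under smoke (adjusted p = 0.162) and by 1.53 ± 0.71 under sham (adjusted p = 0.25). The difference under smoke was -0.40 without the 6 arrays (adjusted p = 0.676) and -0.37 with the heart list (adjusted p = 0.628).

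The HCR smoke arrays with the highest Scgb3a1 were 0417, 0415, 0410 and 0419, at 3454, 3161, 1733 and 1243. Their mean heart muscle levels were 1.45, 3.46, 2.76 and 0.66, against a group median of -0.56. On 0414 that level was 1.95, with Scgb3a1 at 385. The highest Scgb3a1 of the sham groups lay on LCR sham 0442 and HCR sham 0432, whose heart muscle levels were 3.58 and 1.10. In LCR smoke rats the highest, 691, lay on 0421, with a heart muscle level of -0.73. Of the 10 heart muscle genes 1 was called higher with smoke in HCR, and they summed to 152 to 13038 on HCR smoke arrays, against 143 to 3833 on HCR sham arrays. Of the 13 measured genes of mucous cells and glands, 7 were called higher and 2 lower in HCR, and they summed to 12267 to 17451, against 11794 to 12604. With the heart list as a covariate the Scgb3a1 change in HCR was 1.57 (adjusted p = 0.00327). Without the 6 arrays named above it was 1.20 (adjusted p = 0.0862), which ends the call. With each array's interquartile range as a covariate it was 1.64 (adjusted p = 0.167), which also ends it. The parts of heart tissue and of the mucous and gland genes in the Scgb3a1 rise were not tested.

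Cyp2f4 is the P450 that activates naphthalene in rat airways, and Cyp2a3 is a P450 of rat lung and nose that activates nitrosamines of tobacco. Both genes lie on chromosome 1 of the GRCr8 assembly (Cyp2a3 at chr1:91299584-91307650 and Cyp2f4 at chr1:91543768-91557553), 236 kb apart, in a run of P450 genes of the Cyp2 family.

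Cyp2f4 intensity was 51.9, 282 and 693 (lowest, median and highest) in LCR smoke rats, against 425, 732 and 1733 in LCR sham rats. All 12 LCR smoke rats lay below the sham mean and 10 of them lay below every LCR sham rat. In HCR smoke rats Cyp2f4 was 83.4, 498 and 1327, against 200.1, 468 and 1344 in HCR sham rats, and these groups overlapped nearly throughout.

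Cyp2f4 was 3.07-fold lower with smoke in LCR (-1.62 ± 0.47, adjusted p = 0.00461), and leaving out any single array did not end this call. In HCR the change was 0.02 ± 0.47 (adjusted p = 0.981), with a 95% interval of -0.94 to 0.97. The interaction was -1.63 ± 0.66 and did not pass (adjusted p = 0.17), and it was -1.03 without the 6 arrays (adjusted p = 0.518). Between the lines, Cyp2f4 differed by -0.90 ± 0.40 under smoke (adjusted p = 0.164) and by 0.73 ± 0.53 under sham (adjusted p = 0.506).

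Cyp2a3 was 14.3, 215 and 563 in LCR smoke rats, against 211, 518 and 2758 in LCR sham rats. LCR smoke 0426 and 0429 were the lowest of all rats for both enzymes, with Cyp2a3 at 14.3 and 28.1 and Cyp2f4 at 51.9 and 56.2. HCR smoke rats had Cyp2a3 at 74.6, 474 and 1655, against 71.7, 195 and 1458 in HCR sham rats.

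Cyp2a3 was 3.10-fold lower with smoke in LCR (-1.63 ± 0.62, adjusted p = 0.0288), with 12 of 12 smoke rats below the sham mean and 6 below the sham range. Its HCR change was 0.71 ± 0.62 (adjusted p = 0.362) and its interaction -2.34 ± 0.88 (adjusted p = 0.137), which were 0.10 and -1.37 without the 6 arrays (adjusted p = 0.919 and 0.482). The LCR call was lost without those arrays (-1.27, adjusted p = 0.079) and without LCR sham 0440 (0.065), 0441 (0.052) or 0442 (0.0973), or LCR smoke 0426 (0.0535) or 0429 (0.0518). Covariates that ended it were the Actb 3' minus 5' difference (-1.27, adjusted p = 0.093) and that of Gapdh (-1.49, adjusted p = 0.0505). So did the heart list (-1.08, adjusted p = 0.0604). Between the lines Cyp2a3 differed by -1.06 ± 0.54 under smoke (adjusted p = 0.219) and by 1.28 ± 0.70 under sham (adjusted p = 0.35).

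**Figure D2:**
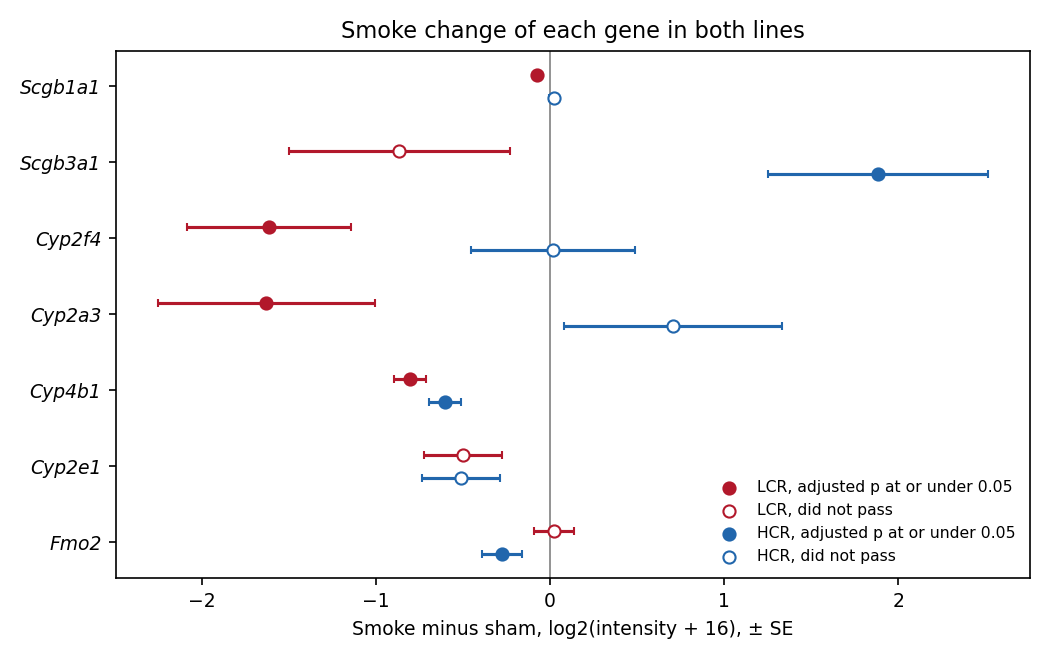
Smoke change of each gene, as smoke minus sham of log2(intensity + 16) with its standard error, in LCR (red) and HCR (blue); filled points passed an adjusted p of 0.05. Cyp4b1 lies below 0 in both lines, whereas Cyp2f4 and Cyp2a3 passed below 0 in LCR only and Scgb3a1 passed above 0 in HCR only, all with wide errors. The interactions of these 3 genes did not pass with all 38 arrays.

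Between rats of the same group, Scgb3a1, Cyp2f4 and Cyp2a3 were among the most variable genes of the lung. Their within-group standard deviations were 1.37, 1.02 and 1.35 on the log2 scale, against 0.12 for the median gene, and larger ones were found for only 20, 37 and 21 of the 14217 genes. That of Scgb1a1 was 0.06, of Cyp4b1 0.20, of Fmo2 0.25 and of Cyp2e1 0.48. With the heart list as a covariate, the standard error of the HCR smoke change went from 0.63 to 0.43 for Scgb3a1. For Cyp2a3 it went from 0.62 to 0.48, for Cyp2f4 from 0.47 to 0.40 and for Cyp4b1 from 0.091 to 0.092. The part of the tissue in each lung piece in this spread was not tested.

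This variation was shared. After the group means were removed, Cyp2f4 and Cyp2a3 correlated over the 38 arrays at r = 0.91 (Spearman rho = 0.90), and at 0.87 to 0.95 within each group. For this pair the permutation p was 1e-05, the smallest that 100000 resamples within groups can give (adjusted p = 4.3e-05), and r was 0.89 without the 2 arrays farthest from the median. Scgb3a1 followed Cyp2a3 (r = 0.83, rho = 0.85) and Cyp2f4 (r = 0.81, rho = 0.85), both with an adjusted permutation p of 4.3e-05 and with r of 0.82 and 0.80 without 2 arrays. Scgb1a1 followed Cyp2f4 at r = 0.66 (rho = 0.71, adjusted permutation p = 1e-04, and r = 0.61 without 2 arrays). Its links to Cyp2a3 (r = 0.51, rho = 0.53, adjusted permutation p = 0.00619, r = 0.43 without 2 arrays, -0.01 within LCR sham) and Scgb3a1 (r = 0.42, rho = 0.47, adjusted permutation p = 0.0203, r = 0.34 without 2 arrays) were weaker.

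Cyp4b1, Cyp2e1 and Fmo2 did not follow Scgb3a1, Cyp2f4 and Cyp2a3 in this way. Cyp4b1 had r of 0.02 to 0.10 with Scgb3a1, Cyp2f4 and Cyp2a3, and 0.44 with Scgb1a1 (rho = 0.43, adjusted permutation p = 0.018, r = 0.46 without 2 arrays). With Scgb3a1, Cyp2f4 and Cyp2a3 the groups differed, with r of -0.86, -0.46 and -0.77 within LCR sham. The same r were 0.33, 0.34 and 0.44 within LCR smoke, and -0.005 to 0.19 within the HCR groups. Cyp2e1 and Fmo2 correlated with each other at r = 0.50 (rho = 0.48, adjusted permutation p = 0.0105, r = 0.43 without 2 arrays). Cyp2e1 ran against Scgb3a1 at r = -0.42 (rho = -0.30, adjusted permutation p = 0.0391), a relation that rests on few rats, since r was -0.25 without 2 arrays. In all, 28 relations were computed, and their 56 p-values for r and rho were adjusted together.

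**Figure D3:**
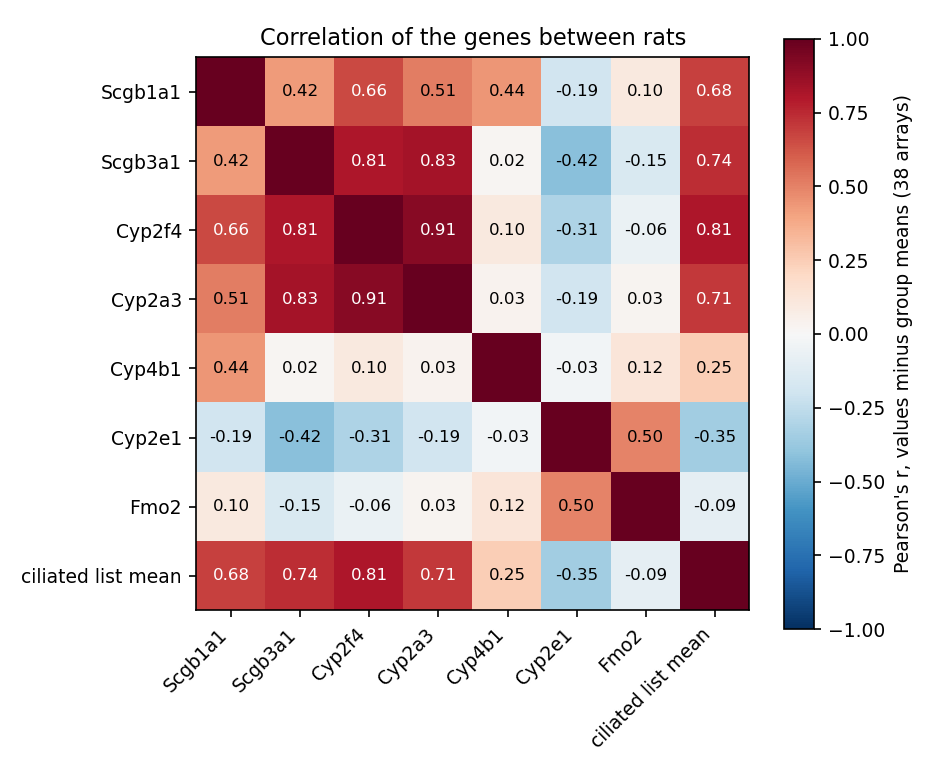
Pearson's r over 38 arrays between the 7 genes and the mean of the ciliated cell list, each with its group means removed. Scgb3a1, Cyp2f4 and Cyp2a3 are linked at 0.81 to 0.91, Scgb1a1 is linked to them at 0.42 to 0.66, and Cyp4b1 is linked to Scgb1a1 at 0.44 but to the other 3 at 0.02 to 0.10.

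The bases before the start of Scgb3a1, Cyp2f4 and Cyp2a3 are shown because their levels moved together from rat to rat, and those of Scgb1a1 because it followed Cyp2f4. Each sequence is the 250 bases before the RefSeq start in GRCr8, on the gene's own strand: Scgb1a1 at chr1:215409687-215409936 (minus strand), Scgb3a1 at chr10:34468916-34469165 (plus), Cyp2f4 at chr1:91543518-91543767 (plus) and Cyp2a3 at chr1:91299334-91299583 (plus). Capitals mark matches, on either strand, to CTTGAG (bound by the lung and thyroid factor Nkx2-1), TATAAA (the TATA box), TGTTTGC (a forkhead motif) and GCGTG (the core bound by the dioxin receptor).
Scgb1a1: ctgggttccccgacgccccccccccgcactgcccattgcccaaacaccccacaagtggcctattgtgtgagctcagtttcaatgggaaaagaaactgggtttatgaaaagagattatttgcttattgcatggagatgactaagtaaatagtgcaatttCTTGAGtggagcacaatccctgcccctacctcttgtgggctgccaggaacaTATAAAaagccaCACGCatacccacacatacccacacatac
Scgb3a1: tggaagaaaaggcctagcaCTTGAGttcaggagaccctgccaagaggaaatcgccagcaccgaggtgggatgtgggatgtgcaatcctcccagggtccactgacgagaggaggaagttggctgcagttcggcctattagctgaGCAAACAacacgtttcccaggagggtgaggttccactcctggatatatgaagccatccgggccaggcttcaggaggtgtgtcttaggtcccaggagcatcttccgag
Cyp2f4: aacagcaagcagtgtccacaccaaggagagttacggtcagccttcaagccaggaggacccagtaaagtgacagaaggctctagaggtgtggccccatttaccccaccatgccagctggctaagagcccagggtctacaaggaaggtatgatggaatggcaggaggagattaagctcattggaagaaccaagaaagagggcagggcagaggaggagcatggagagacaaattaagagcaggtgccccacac
Cyp2a3: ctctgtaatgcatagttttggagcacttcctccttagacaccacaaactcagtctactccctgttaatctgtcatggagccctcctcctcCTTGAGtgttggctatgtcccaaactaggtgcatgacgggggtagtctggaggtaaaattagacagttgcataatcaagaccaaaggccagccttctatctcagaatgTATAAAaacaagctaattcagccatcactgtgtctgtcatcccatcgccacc

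CTTGAG was in the windows of 5 of the 7 genes, against 13.3% of all 33469 RefSeq windows of this length. It lies in Scgb1a1, Scgb3a1, Cyp2a3, Cyp2e1 and Fmo2, thus both in genes that varied together and in genes outside them, and neither in Cyp2f4 nor in Cyp4b1. TATAAA was in 3 of 7 windows (Scgb1a1, Cyp2a3 and Cyp2e1), against 12.9% of all windows. TGTTTGC was in that of Scgb3a1 alone (4.16% of all windows) and GCGTG in that of Scgb1a1 alone (25.9%). The forkhead motif TGTTTAC (3.21% of all windows) and TTGCGCAA (0.14%), bound by C/EBP factors, had no match in any of the 7. Cyp2f4 and Cyp2a3, the pair most alike between rats, shared none of the 6 motifs searched. These matches describe letters, not binding.

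Ciliated cells are the other main cell of the bronchiole, and the level of their markers correlated with Scgb1a1, Scgb3a1, Cyp2f4 and Cyp2a3. Of 32 listed markers 18 were measured, and smoke lowered 10 of them in LCR and 2 in HCR, with median changes of -0.46 and -0.02. None of the 18 was called in the interaction, or between the lines under smoke or sham. Their median LCR minus HCR difference was 0.32 under sham and -0.12 under smoke. Tppp3, a tubulin-binding protein, fell in both lines (-0.74, adjusted p = 1.79e-08 in LCR and -0.54, adjusted p = 7.38e-06 in HCR). So did Rfx2, a factor for cilia genes (-0.83 in LCR and -0.33 in HCR, adjusted p = 1.24e-06 and 0.0284). Ift172 and Rfx3 fell in LCR (-0.53 and -0.43). The LCR count ranged from 4 to 12 when arrays were left out singly, with 4 without LCR sham 0442. It was 5 without the 6 arrays, 5 with quantile normalization and 4 when each array's interquartile range entered the fit.

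The 18 ciliated markers summed to 3177 to 5528 on LCR smoke arrays and 4879 to 7309 on LCR sham arrays, and to 3513 to 7132 on HCR smoke and 4355 to 6493 on HCR sham arrays. Their mean log2 level, with group means removed, correlated with Cyp2f4 at r = 0.81 (rho = 0.82) and with Scgb3a1 at r = 0.74 (rho = 0.69). With Cyp2a3 it was r = 0.71 (rho = 0.67) and with Scgb1a1 r = 0.68 (rho = 0.71), and r without 2 arrays was 0.64 to 0.77 for the 4 genes (adjusted permutation p at most 1e-04). For Cyp2a3, r was only 0.25 within LCR sham, against 0.74 to 0.85 within the other groups. Over all arrays, r of the ciliated level was 0.25 with Cyp4b1 (adjusted permutation p = 0.299), -0.35 with Cyp2e1 (0.103) and -0.09 with Fmo2 (0.765), none of which passed.

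With the ciliated level as a covariate, the LCR smoke change of Cyp2f4 was -0.60 (adjusted p = 0.112), that of Cyp2a3 -0.45 (adjusted p = 0.472) and that of Scgb1a1 -0.03 (adjusted p = 0.391), so none of the 3 calls held. The covariate, fitted with a common slope for all groups, is itself lower with smoke in LCR. The Scgb3a1 rise in HCR was 1.95 with it (adjusted p = 0.000354), and Cyp4b1 was -0.75 in LCR (adjusted p = 1.91e-07) and -0.60 in HCR (adjusted p = 1.84e-06).

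**Figure D4:**
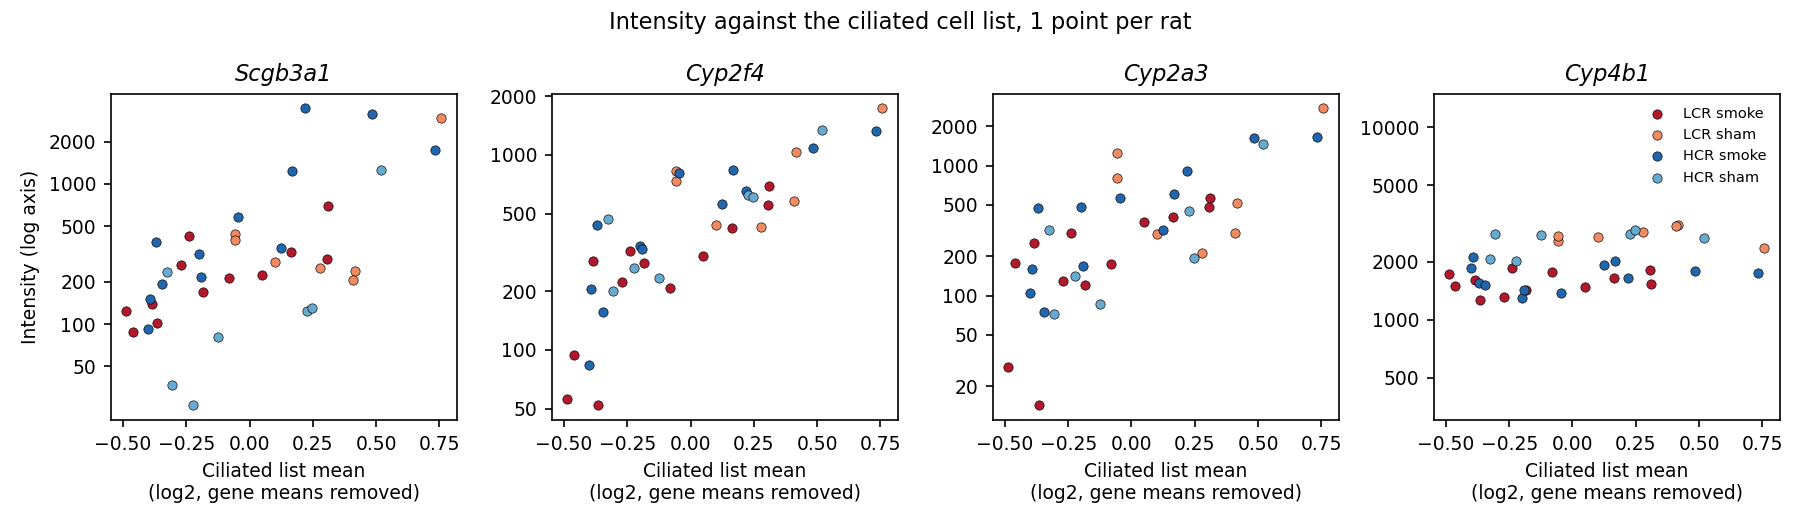
Intensity of Scgb3a1, Cyp2f4, Cyp2a3 and Cyp4b1 on a log axis against the mean log2 level of 18 ciliated cell markers (each gene's mean over all arrays removed), 1 point per rat, coloured by group. Cyp2f4 climbs with the ciliated level in every group (r = 0.81 with group means removed), while Cyp4b1 is nearly flat (r = 0.25) and splits by exposure.

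Cyp4b1, a lung P450 that hydroxylates fatty acids and activates the plant toxin ipomeanol, was the one gene of the 7 called lower in both lines by its brightest probe set. Its intensity was 1270.1, 1578 and 1851 in LCR smoke rats, against 2348, 2721 and 3115 in LCR sham rats, and the groups did not overlap. In HCR smoke rats it was 1305, 1695 and 2122, against 2012, 2755 and 2914 in HCR sham rats, where 11 of 12 smoke rats lay below every sham rat.

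Cyp4b1 was 1.75-fold lower with smoke in LCR (-0.81 ± 0.09, adjusted p = 6.58e-09) and 1.52-fold lower in HCR (-0.60 ± 0.09, adjusted p = 2.25e-06). No setting tried and no array left out ended either call. The interaction was -0.20 ± 0.13 (adjusted p = 0.405), with a 95% interval of -0.46 to 0.06, and the lines differed by -0.09 ± 0.08 under smoke and 0.12 ± 0.10 under sham (adjusted p = 0.513 and 0.615).

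Markers of alveolar type 1 cells and of endothelium were lower in the same rats. Of 7 measured endothelial genes 7 fell in LCR and 6 in HCR, and of 7 alveolar type 1 genes 6 fell in LCR and 7 in HCR. The endothelial sum was 10857 to 12902 on LCR smoke and 13599 to 17032 on LCR sham arrays, and 10531 to 13888 on HCR smoke and 14428 to 16909 on HCR sham arrays. The part of these cells in the Cyp4b1 fall was not tested.

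Cyp2e1, the P450 of ethanol, small solvents and nitrosamines, best known from liver, had intensities of 214, 310.3 and 531 in LCR smoke rats, against 323, 370.4 and 705 in LCR sham rats. It was 127, 354 and 696 in HCR smoke rats, against 425, 528 and 797 in HCR sham rats. HCR smoke 0415, at 127, was the lowest of all rats, and all groups overlapped. The changes were of like size, -0.50 ± 0.22 in LCR (adjusted p = 0.0597) and -0.51 ± 0.22 in HCR (adjusted p = 0.0574), and neither passed. In LCR, 5 single arrays left out and 5 other settings brought a call, and in HCR 6 and 2 did. Without the 6 arrays the LCR change was -0.58 (adjusted p = 0.0189) and the HCR change -0.25 (adjusted p = 0.38). The interaction was 0.01 ± 0.32 (adjusted p = 0.992), with a 95% interval of -0.63 to 0.65. The lines differed in Cyp2e1 by -0.25 ± 0.19 under smoke and by -0.26 ± 0.25 under sham (adjusted p = 0.448 and 0.657).

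Fmo2, a flavin mono-oxygenase gene expressed in the lung, gave different answers with its 3 probe sets. By the brightest, 1382031_at, it was 1628, 2494 and 3069 in LCR smoke rats, against 2006, 2274 and 3270 in LCR sham rats. In HCR smoke rats it was 1826, 2618 and 3395, against 2586, 3270 and 3745 in HCR sham rats. The LCR groups lay over each other, and 6 of 12 HCR smoke rats lay below every HCR sham rat. The change was 0.02 ± 0.12 in LCR (adjusted p = 0.895) and -0.28 ± 0.12 in HCR (adjusted p = 0.0463), a call at the edge of the threshold. It was lost when any of 12 arrays was left out singly (adjusted p of 0.052 to 0.111) and under 7 other settings (0.055 to 0.0991). Between the lines Fmo2 differed by -0.08 ± 0.10 under smoke (adjusted p = 0.637) and by -0.38 ± 0.13 under sham (adjusted p = 0.0934), the second of which passed with array weights (0.0498) and with the adipocyte list as a covariate (0.024). Its interaction was 0.30 ± 0.16 (adjusted p = 0.323).

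By the second probe set of Fmo2, 1377635_at, LCR smoke rats had 729.8, 1224 and 1451, against 1392, 1514 and 2028 in LCR sham rats. HCR smoke rats had 804, 1326 and 1850.0, against 1709, 2372 and 2596 in HCR sham rats. In a fit over all probe sets it fell in both lines, by 0.52 ± 0.14 in LCR (adjusted p = 0.0033) and by 0.72 ± 0.14 in HCR (adjusted p = 0.000131). The third, 1379467_at, changed by 0.15 ± 0.16 in LCR (adjusted p = 0.476) and by -0.34 ± 0.16 in HCR (adjusted p = 0.0916). The probe sets thus agreed in sign in HCR and differed in LCR, and no file used here says which part of the transcript each one reads.

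**Figure D5:**
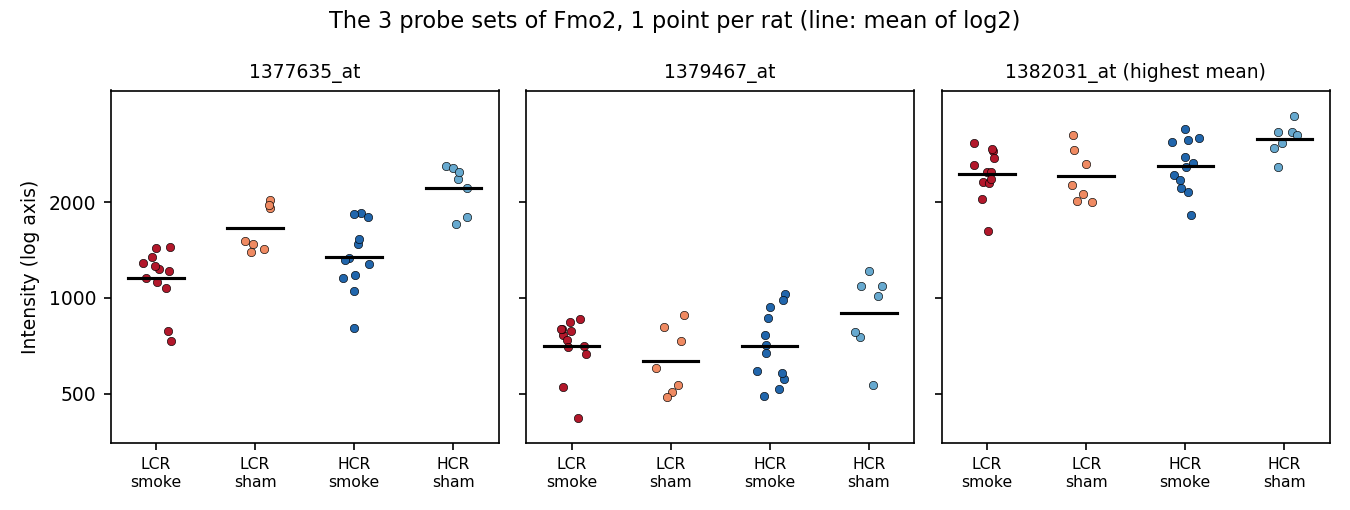
Intensity on a log axis of the 3 probe sets of Fmo2 in every rat by group, with a line at the mean of log2(intensity + 16). Smoke groups are lower in both lines by 1377635_at, while by 1382031_at, the probe set with the highest mean, the LCR groups lie at the same height.

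Among other xenobiotic oxidases and their partners, 26 of 29 listed genes were measured, and smoke raised 10 and lowered 10 in LCR, and raised 8 and lowered 10 in HCR. Of the P450s induced through the dioxin receptor, Cyp1a1 rose by 7.13 ± 0.14 in LCR (adjusted p = 3.18e-31) and 7.19 ± 0.14 in HCR (adjusted p = 2.29e-31), and Cyp1b1 by 3.39 and 2.80. Aldh3a1, an aldehyde dehydrogenase of the same response, rose by 3.66 and 3.82, and Cyb5a, a cytochrome that can pass electrons to P450s, by 0.45 and 0.28. Of the relatives of Fmo2, Fmo1 fell in both lines (-0.62 ± 0.09, adjusted p = 7.58e-07 in LCR and -0.57 ± 0.09, adjusted p = 4.15e-06 in HCR), and its intensity ranges did not overlap in LCR (1552 to 2583 with smoke, against 2620 to 3513 with sham).

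Por, the reductase that feeds electrons to every microsomal P450, was singled out after its values were seen. It rose in LCR (0.31 ± 0.09, adjusted p = 0.0033), against -0.15 ± 0.09 in HCR (adjusted p = 0.151), and the interaction of Por, 0.45 ± 0.12, passed (adjusted p = 0.0423). The sign of that difference was opposite to the interactions of Scgb3a1, Cyp2f4 and Cyp2a3 given above, which did not pass.

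Of 18 other markers of club and secretory airway cells 15 were measured, and their median changes were 0.02 in LCR and 0.20 in HCR. Smoke raised 6 and lowered 2 in LCR, and raised 5 and lowered 1 in HCR, where the higher count was 3 with quantile normalization and 7 with median centring. Pigr, which carries IgA into the airway lumen, rose by 0.51 in LCR (adjusted p = 1.83e-12) and 0.26 in HCR (adjusted p = 2.1e-06). Hp (haptoglobin, which binds free haemoglobin) rose by 1.10 and 1.15, and Cldn10, a tight junction protein, by 0.91 and 0.58. Sec14l3, a lipid-binding protein, fell by 0.35 (adjusted p = 0.000189) and 0.25 (adjusted p = 0.00681). The summed list spread from 13646 to 18103 on LCR smoke and 12947 to 17138 on LCR sham arrays, and from 12662 to 19874 on HCR smoke and 12935 to 15324 on HCR sham arrays.

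Of 17 transcription factors of secretory airway cells 16 were measured, of which smoke raised 8 and lowered 3 in LCR, and raised 2 and lowered 5 in HCR. Nfia and Nfib fell in both lines (-0.53 and -0.69 in LCR, -0.41 and -0.29 in HCR), and Elf3, an epithelial factor, rose in both (0.79 and 0.89). Cebpb rose by 0.48 in LCR (adjusted p = 3.17e-06), against 0.09 in HCR (adjusted p = 0.354). The LCR count of 8 was 5 without the 6 arrays, 5 without LCR sham 0442 and 5 with the ciliated level as a covariate. The HCR count of 5 lower was 2 without the 6 arrays.

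The genes whose rat-to-rat pattern was most like each of the 7 were read off over the 38 arrays with group means removed, as a description. For Scgb3a1 they were Scin, an actin-severing protein, at r = 0.89, Gpc6, a cell-surface glypican, at 0.89 and Cabcoco1 at 0.88. For Cyp2f4 they were Cyp2a3, Dynlrb2, a dynein light chain, at 0.87 and Lypd2, of the club and secretory list, at 0.87. For Cyp2a3 they were Cyp2f4, Cabcoco1 at 0.84 and Pecr, a peroxisomal enzyme of fatty acid metabolism, at 0.83. For Scgb1a1 they were Iqub at 0.77, Fhad1 at 0.76 and Actg2, an actin of smooth muscle, at 0.76. Cyp4b1 had no partner above 0.65, which was that with Tppp3 of the ciliated list. Cyp2e1 was closest to Mylip, a ubiquitin ligase of lipoprotein receptors, at 0.82, and Fmo2 to Gpx3, the secreted glutathione peroxidase, at 0.72 and to Cdo1, cysteine dioxygenase, at 0.69.

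Of these partners, Tppp3 fell in both lines, as given above, and so did Gpx3 (-0.17 ± 0.05, adjusted p = 0.00553 in LCR and -0.29 ± 0.05, adjusted p = 2.5e-05 in HCR). Cdo1 fell in HCR (-0.32 ± 0.10, adjusted p = 0.0073), against 0.05 ± 0.10 in LCR (adjusted p = 0.672), and was lower in LCR than in HCR under sham (-0.57 ± 0.11, adjusted p = 0.00205). Fhad1 fell with smoke in LCR (-0.62 ± 0.15, adjusted p = 0.000642), as did Gpc6 (-0.59 ± 0.20, adjusted p = 0.0133). In HCR the changes were -0.14 (adjusted p = 0.45) for Fhad1 and 0.17 (adjusted p = 0.517) for Gpc6. Lypd2 was lower in LCR than in HCR under smoke (-0.79 ± 0.20, adjusted p = 0.014). For Scin, Cabcoco1, Dynlrb2, Pecr, Iqub, Actg2 and Mylip, no change passed in any of the 5 contrasts.

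The next partners of Cyp4b1, at r of 0.62 each, were Igip and Dhrs3, a retinaldehyde reductase. Igip fell by 0.29 in LCR and 0.13 in HCR (adjusted p = 5.55e-08 and 0.00319) and Dhrs3 by 0.72 and 0.69 (adjusted p = 8.48e-09 and 6.05e-08). For Cyp2e1 they were Prickle2, a planar polarity protein, at 0.75 and Zfp267 at 0.74. Prickle2 fell by 0.57 in LCR and 0.50 in HCR (adjusted p = 2.8e-05 and 0.000225), and Zfp267 fell by 0.26 in LCR (adjusted p = 2.15e-05), against -0.11 in HCR (adjusted p = 0.0532). Spon1, the third partner of Fmo2 at 0.66, fell by 0.26 in HCR (adjusted p = 0.00343), and its LCR change did not pass (adjusted p = 0.989).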

How the data were processed

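Lung RNA of 38 rats was measured on Affymetrix rat arrays, 1 per rat, and groups were read from the labels. For LCR sham 0445, whose own entries give tissue only, age and sex come from the labels' growth protocol. The authors deposited linear intensity values for 31099 probe sets, which run from 2.09 to 11558. How the arrays were summarised and normalized is not given in the sources consulted. After 57 control probe sets were set aside, 20826 had 1 gene symbol in the platform annotation, 436 several and 9780 none. Each of 14217 genes was represented by its brightest probe set of 1 symbol.

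Values were taken as log2(intensity + 16) with no further normalization and tested with limma 3.58.1 (lmFit and eBayes, two-sided) under R 4.3.3. One model with 4 group means covered all 38 arrays, and Benjamini-Hochberg adjustment ran over the 14217 genes in each of 5 contrasts. The fit was checked on simulated data. Correlations used permutations within groups in Python 3.11.15 (SciPy 1.17.1, pandas 2.3.3, NumPy 2.4.6), which also drew the figures (matplotlib 3.10.9). Correlations between arrays lay between 0.962 and 0.997, and no 2 arrays shared more than 0.0611% identical values.

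Sequences are RefSeq windows of GRCr8, found for 7 of 7 genes by symbol. The windows of Cyp4b1 and Fmo2 begin at a transcript start other than the outermost one. Both strands were searched for 6 motifs. Named were the 7 genes in every contrast, a set of sentinel genes, up to 4 genes of each list with the lowest p among those that passed, and the 3 genes most like each of the 7. Por, Fmo4 and the chromosome 1 neighbours of Cyp2a3 and Cyp2f4 fall outside this rule. Members, lists, alternatives and the 6 arrays were chosen with earlier results of these data known. The heart list covariate was added after seeing the data. Other settings were median centring, quantile normalization, a filter on dim genes, other probe set choices, a pseudocount of 1, a fit of only the groups compared, array weights, a robust variance with intensity trend, covariates, and arrays left out. Scgb3a2 and Cyp2b1 are not analysed here.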

Additional observations from a re-analysis of the deposited data

Results flagged for a closer look

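Scgb3a1 on LCR sham 0442 stood apart from the rest of its group, with an intensity of 2925 against 440.03 on the next highest LCR sham array. On the log2(intensity + 16) scale the gap took up 0.721 of the whole range of the 7 LCR sham arrays. The same array carried the highest heart muscle sum of the study, 18843, and the highest Cyp2f4 and Cyp2a3 values of all rats, 1733 and 2758. The part of that tissue in the Scgb3a1 value was not tested. The outlier test covered 18 groups of values, all from sham rats, and the smoke groups were not tested. This was the only flag. The critical value used for 7 arrays was 0.568. The 18 groups include the 3 probe sets of Fmo2 and genes that varied together, so they were not independent. How often chance alone gives such a flag was not tested.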

How the results depend on the processing

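No paired analysis was possible because each number in the labels belongs to 1 rat and no groups share numbers. Over the 35 changes of the 7 genes (5 contrasts each) and all settings, 1776 of 1893 values kept direction and side of the threshold, 40 lost a call, 25 gained one, 51 changed sign with neither value passing, and 1 reversed: Fmo2 in LCR read by 1377635_at (-0.52). Actb 3' minus 5' or the ciliated level as a covariate left 2 of the 7 genes called with smoke in LCR, and the interquartile range left 1 in HCR. Array weights called 1 gene in each of the line contrasts and the interaction, the Actb covariate 1 in the interaction, and the adipocyte covariate 1 under sham and 1 in the interaction. Without single arrays 3 to 5 of the 7 genes were called with smoke in LCR, 2 to 4 in HCR, 0 between lines under either exposure and 0 to 1 in the interaction. Genes called over the whole array were 13229 with smoke in LCR and 12324 in HCR over all probe sets, and 3023 in HCR with the interquartile range. Between lines under smoke they were 2860 with array weights, 365 with the interquartile range, 591 with the heart list and 487 without the 6 arrays. Under sham they were 815 with median centring, 1240 over all probe sets, 233 with only the groups compared, 946 with array weights and 827 with the interquartile range. In the interaction they were 549 with median centring, 531 over all probe sets, 1537 with array weights, 562 with Gapdh, 629 with Actb, 71 with the ciliated, 455 with the adipocyte and 104 with the heart list, and 58 without the 6 arrays. Without single arrays they ranged from 6605 to 7367 (smoke in LCR), 6262 to 6985 (smoke in HCR), 599 to 1246 (lines under smoke), 314 to 830 (lines under sham) and 81 to 768 (interaction). Apart from fewer arrays or more probe sets entering a fit, the cause was not tested. Scgb1a1 near the top of the scale, and the dim Cyp2a1, Cyp2a2 and Cyp2g1, are read with little room for a change.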

Other observations

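The neighbours of Cyp2a3 and Cyp2f4 on chromosome 1 were read as single genes where a probe set named 1 symbol, and were chosen after values were seen. Cyp2a1 and Cyp2a2, P450s best known from rat liver, had intensities of 2.86 to 5.06 on all 38 arrays, near the lowest of the table, 2.09. Cyp2g1, a P450 of the olfactory lining, lay between 5.74 and 16.1.

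Cyp2t1, next to Cyp2f4, was lower with smoke in both lines, by -0.31 ± 0.08 in LCR (limma adjusted p = 0.00267) and -0.49 ± 0.08 in HCR (limma adjusted p = 1.6e-05). Its intensity was 41.5 to 56.6 in LCR smoke rats, against 53.4 to 71.0 in LCR sham rats, and 40.0 to 90.8 in HCR smoke rats, against 65.5 to 106 in HCR sham rats. Cyp2t1 thus fell in HCR, where the changes of Cyp2f4 and Cyp2a3 did not pass. Fmo4, a relative of Fmo2, was lower with smoke too (-0.30 ± 0.07 in LCR and -0.44 ± 0.07 in HCR, limma adjusted p = 0.000481 and 4.81e-06). Fmo5 rose with smoke in LCR (0.54 ± 0.11, limma adjusted p = 0.00021), at 241 to 507, against 184 to 259 with sham. In HCR its change was 0.20 ± 0.11 (limma adjusted p = 0.147), at 277 to 467 with smoke, against 279.9 to 347 with sham. Under sham, Fmo5 was lower in LCR than in HCR (-0.57 ± 0.13, limma adjusted p = 0.00716).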
